A study of Mus musculus with 39 samples.

Results

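The arrays described here are the 9 of a mouse fat time course on which the immediate early genes Fos, Egr1, Egr2 and Jun were low. They were LFC at day 1, day 6 and week 12, HFC at day 6 and day 10, HF20 at weeks 6, 12 and 18, and HF75 at week 12. The series held 39 one-colour arrays of epididymal adipose tissue, of which 28 formed the high set and 2, LFC week 3 and HFC week 12, were left out as faulty. Membership was chosen from the measured levels of these 4 genes, so low against high is given below as a description. Genes are counted there as called lower or higher by a threshold in a fit across all probes, and such a call is a mark of size against spread and not independent evidence.

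All mice were C57BL/6J, weaned at the age of 3 to 4 weeks and then put on their diets. LFC was a low fat diet with 10% of calories from fat and HFC a high fat, high sucrose diet with 60% of calories from fat. HF5, HF20 and HF75 were the HFC diet with 5, 20 or 75 µg of KAL-1, a plant formulation. The labels describe 5 animals of a group killed at each sampling, with the tissue frozen in liquid nitrogen, and do not say whether RNA was pooled. Each diet and time point was 1 array, the animals behind an array were not named, and the spread below is therefore over time points and diets. In a whole tissue, fewer cells of a type and less RNA per cell cannot be told apart.

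Immediate early genes are switched on within minutes of a stimulus without new protein synthesis. Fos and Jun form the AP-1 transcription factor, Egr1 and Egr2 are zinc finger transcription factors, and in many tissues they also respond to handling, injury and lack of blood supply. Secondary targets of the same signalling follow later.

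Promoter letters are shown for 1 marker gene and for 3 cytokine genes that were lower in the low arrays. The sequences come from RefSeq on GRCm38.p6, hold the 250 bases before a transcription start, and were searched on both strands. The motifs were the cyclic AMP element TGACGTCA, the AP-1 site TGANTCA, the Egr site GCGTGGGCG, the heat shock element, the CArG box and the NF-kappaB site, and capitals mark every match. The Egr2 window is chr10:67537619-67537868 (+), Il6 is chr5:30012864-30013113 (+), Cxcl1 is chr5:90890995-90891244 (+) and Cxcl2 is chr5:90903649-90903898 (+).
Egr2: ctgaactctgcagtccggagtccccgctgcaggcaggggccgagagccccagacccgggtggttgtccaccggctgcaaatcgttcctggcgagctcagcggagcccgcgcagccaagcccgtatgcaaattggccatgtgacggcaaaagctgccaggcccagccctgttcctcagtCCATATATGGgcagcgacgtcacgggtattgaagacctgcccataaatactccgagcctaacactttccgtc
Il6: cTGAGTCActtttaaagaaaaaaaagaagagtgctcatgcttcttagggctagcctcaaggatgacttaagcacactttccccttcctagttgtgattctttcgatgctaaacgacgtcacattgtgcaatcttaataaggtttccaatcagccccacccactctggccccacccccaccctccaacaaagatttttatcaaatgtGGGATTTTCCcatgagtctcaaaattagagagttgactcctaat
Cxcl1: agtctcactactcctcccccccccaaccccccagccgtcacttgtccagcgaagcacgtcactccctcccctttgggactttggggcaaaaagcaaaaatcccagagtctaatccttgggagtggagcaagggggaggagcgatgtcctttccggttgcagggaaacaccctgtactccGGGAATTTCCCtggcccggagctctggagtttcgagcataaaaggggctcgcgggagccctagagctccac
Cxcl2: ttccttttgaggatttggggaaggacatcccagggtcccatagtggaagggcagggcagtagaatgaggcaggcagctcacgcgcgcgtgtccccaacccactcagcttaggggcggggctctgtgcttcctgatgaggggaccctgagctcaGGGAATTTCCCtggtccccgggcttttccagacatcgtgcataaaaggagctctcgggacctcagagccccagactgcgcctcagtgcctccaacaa
The Egr2 capitals are a CArG box, the Il6 capitals an AP-1 site and an NF-kappaB site, and the Cxcl1 and Cxcl2 windows carried the same 11 letters, in which 2 NF-kappaB matches overlap.

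Among 32851 windows of this length, 1.47% held the CArG box, 1.55% the cyclic AMP element, 6.75% the AP-1 site and 7.25% the NF-kappaB site. For the cytokines and chemokines, 6 of 16 windows (37.5%) held the AP-1 site, 5 (31.2%) the NF-kappaB site and 0 the cyclic AMP element, the Egr site or the CArG box. For the immediate early genes outside the AP-1, Egr and Nr4a families, 4 of 25 windows (16.0%) held the cyclic AMP element, in Dusp1, Btg2, Plk2 and Errfi1, 3 the CArG box, 1 the AP-1 site, 1 the NF-kappaB site and 0 the Egr site. In 8 windows of the AP-1 family 0 held the AP-1 site or the CArG box, 3 the NF-kappaB site and 1 each the cyclic AMP element and the Egr site. The 7 windows of the markers cover Fos, Jun and Egr2. Of these, 4 held the CArG box, all of them windows of Egr2, 2 the NF-kappaB site and 0 the other motifs, and the Jun window held none. The Egr2 windows that start at 67537619, 67537620 and 67537680 overlap and share 1 CArG box, so windows are not separate sites. The heat shock element, present in 153 of all windows, was found in 2 of 25 windows of the heat shock genes, those of Hspd1 and Hspe1, and 5 of these windows held the NF-kappaB site. A match is a description of letters and was not tested as a binding site.

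Values are log2 of the processed intensity minus the array's 75th percentile, so 0 is the level of the 75th percentile. Over the 9 low arrays the mean of the 4 markers was lowest on LFC week 12 (-1.43), had a median of -0.11 and was highest on LFC day 1 (2.22). Over the 28 high arrays it was lowest on HFC week 3 (2.62), had a median of 4.58 and was highest on HF75 week 15 (5.30). The boundary thus lay between LFC day 1 and HFC week 3, which were 0.40 apart. The next low array, LFC day 6, was at 0.72 and the next high arrays, HFC day 14 and LFC day 10, were at 3.32 and 4.20, so that 3 arrays stood between the bulk of either set.

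Fos, the AP-1 subunit, ranged from -3.95 through a median of -1.71 to 1.76 on the low arrays and from 0.72 through 4.91 to 5.93 on the high ones. Apart from HFC week 3 at 0.72, every high array was at 3.97 or above. Egr1 ranged from -0.64 through 0.30 to 2.90 against 4.62 through 6.13 to 6.90, with no overlap, and its spot was saturated on 6 high arrays. Egr2 ranged from -1.53 through -0.79 to 2.92 against 1.19 through 3.36 to 4.99. Its overlap came from LFC day 1 at 2.92, above HFC day 14 (1.19), HFC week 0 (2.18) and HF75 week 6 (2.79). Jun ranged from -0.18 through 0.67 to 1.30 against 1.65 through 3.88 to 4.95, with no overlap and 1 high array, HF75 week 18, missing because its spot was marked as an outlier.

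**Figure D1:**
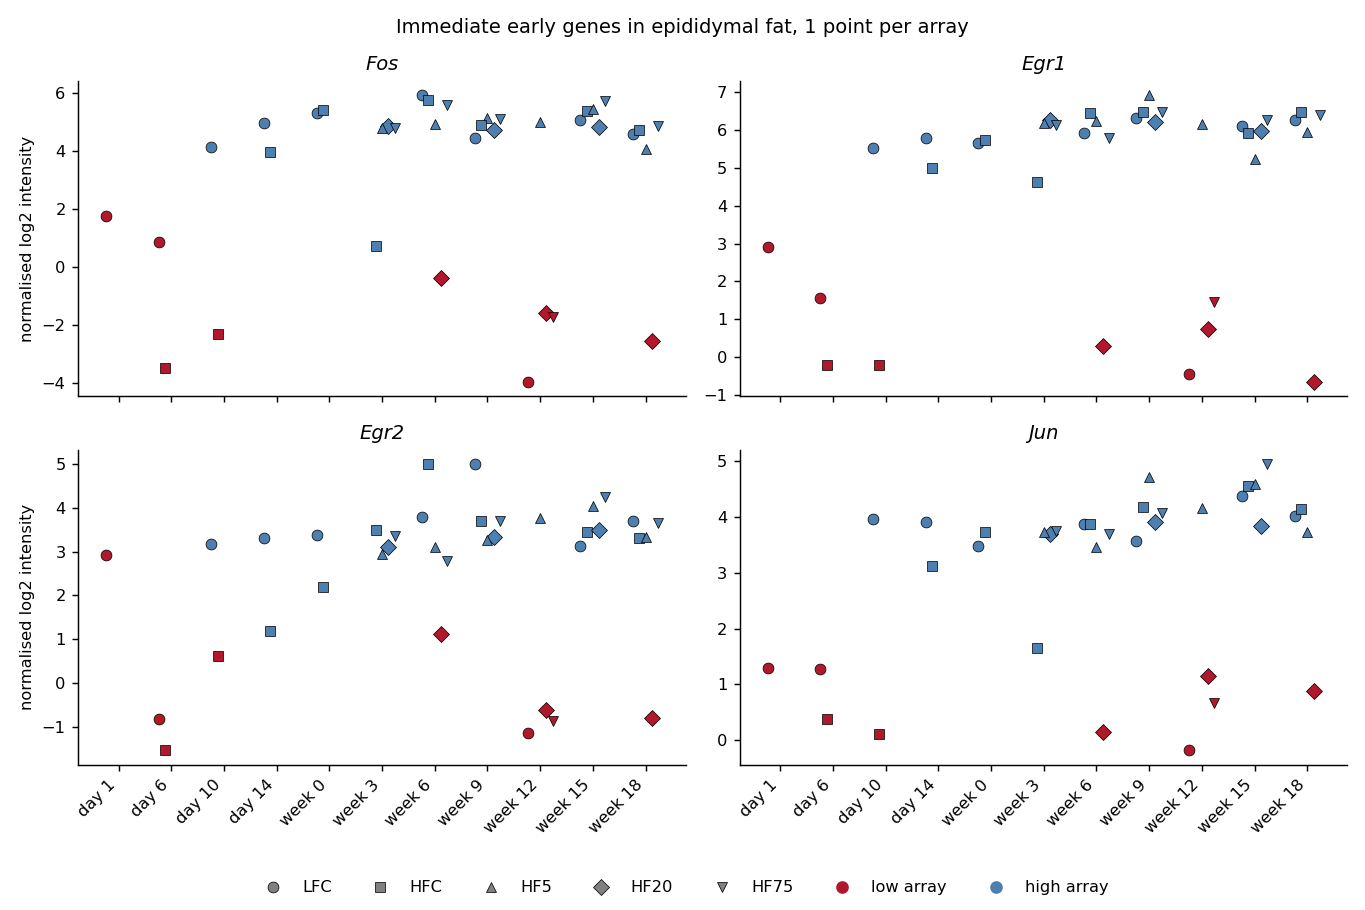
Normalised log2 intensity (y axes) of Fos, Egr1, Egr2 and Jun on every array by time point (x axes), with 1 point per array, shapes for diets and red for the 9 low arrays. The low arrays lie on days 1, 6 and 10 and weeks 6, 12 and 18, and HFC week 3 lies closest to them for Fos and Jun.

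The low set was spread over diets and times. It took 3 of 10 LFC arrays used, 2 of 9 HFC, 0 of 6 HF5, 3 of 6 HF20 and 1 of 6 HF75. Days 1 and 6 had low arrays alone, week 12 had 3 low arrays to 1 high, and day 14 and weeks 0, 3, 9 and 15 had high arrays alone. A published study of the liver in this experiment counts the weeks from day 14, so week 0 and day 14 are the same time there. Here they were kept as separate time points. The sample titles carry marks that the labels do not explain. Titles with EA and a digit belonged to 4 low arrays (LFC day 1 and LFC, HF20 and HF75 week 12) and to 0 high ones, whereas titles that end in A after a hyphen belonged to 0 low and 23 high arrays.

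Signal also moved with the sets. The 75th percentile intensity was 697 to 1472 on the low arrays and 120 to 1276 on the high ones, and 67.0 to 79.6% against 53.7 to 79.2% of probes were well above background. Saturated spots numbered 472 to 970 against 71 to 716. The median rank correlation of an array with the others was 0.884 to 0.920 against 0.897 to 0.956. The part of signal strength in the results was not tested. Adipocyte markers were bright throughout, with an array median of 5.10 to 5.68 on the low arrays and 3.17 to 5.69 on the high ones.

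Of 31191 probes tested, 24.9% were lower and 25.1% higher in the low arrays at an adjusted p of 0.05 in limma, and the median difference over all probes was 0.01. With normexp background correction 25.6% of the calls were higher, in place of 50.2%, and the median over all probes was -0.53. Both percentages stand beside each count of genes below, from which nothing is inferred because the sets were drawn from these data. The high arrays of week 6 (LFC, HFC, HF5 and HF75) stood apart. Their mesothelial list median was -7.34 to -5.80 and their visceral depot median -6.68 to -3.70, against -3.74 to 1.39 and -2.35 to 1.07 on the other 24 high arrays. Their subcutaneous depot median was -1.46 to -0.52, against -6.97 to -3.16. Without these 4 arrays 15145 probes were called in place of 15579, and the part of their depot markers in the results was not tested. The counts and medians of the cytokine (17 of 18 lower, -5.72), endothelial (11 of 11 lower, -1.93), lipogenic (18 of 22 higher, 2.08), respiratory chain (32 of 42 higher, 0.99) and branched chain amino acid (16 of 16 higher, 1.80) lists were computed without them as well.

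Without the 3 arrays nearest the boundary, 6.26% of the probes did not overlap between the sets, against 0.616% with them.

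The rest of the immediate early programme was lower in the low arrays together with the 4 markers. All 7 AP-1 genes tested were called lower, with a median difference of -3.96. Fosb ranged from -4.61 through -3.66 to -0.25 against -2.63 through 2.59 to 3.80, a difference of -5.57 ± 0.45 (SE, 9 against 28 arrays). Atf3, a stress-induced partner of the same family, differed by -5.36 ± 0.41. Jund was the least different, at -2.40 ± 0.27, and Junb and Nr4a1 were saturated on most high arrays, which compresses their differences.

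All 4 tested genes of the Egr and Nr4a families were called lower, and Egr3 did not pass the filter on dim probes. The orphan nuclear receptor Nr4a1 ranged from 0.77 through 1.53 to 3.41 against 3.94 through 6.73 to 7.84, with no overlap. Nr4a3 was well above background on 0 low arrays and on 26 of 28 high ones, so that it was at least 11.6-fold higher in the high arrays. Egr4 differed by -6.64 ± 0.58.

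The other 32 immediate early genes were all called lower, with a median of -3.33 and a range from -5.38 to -1.14. On single arrays their median was 0.60 to 1.73 in the low set and 1.86 to 4.85 in the high set. Zfp36, which promotes decay of cytokine mRNAs, ranged from -0.85 through 0.24 to 1.22 against 1.31 through 5.42 to 6.11. Csrnp1, an AP-1-inducible nuclear protein, ranged from -1.02 through -0.24 to 0.70 against 1.16 through 5.04 to 6.33. Neither overlapped. Rgs1 (-5.38 ± 0.66), Gem (-5.23 ± 0.45) and Gadd45b (-5.10 ± 0.47) differed as much but overlapped. With the 3 boundary arrays left out, 28 of the 32 genes did not overlap.

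The 8 named genes with the largest negative differences were Il6, Ifnb1, Csf3, Sele, Cxcl2, Cxcl1, Areg and Ccl4, and none of them was a marker of the rule. Il6, a cytokine made by many cells under stress, was at -6.31 on LFC day 1, -5.09 on LFC day 6, -6.12 on HFC day 6, -6.07 on HFC day 10, -7.06 on HF20 week 6, -6.61 on LFC week 12, -5.68 on HF20 week 12, -6.77 on HF75 week 12 and -6.46 on HF20 week 18. It was not well above background on 2 of these. On the high arrays it was at -5.55 on HFC week 3 and -1.98 on HFC day 14, and from 3.10 to 6.98 on the other 26. The difference of means was -10.97 ± 0.83.

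Cxcl1, the neutrophil chemokine whose promoter is shown above, ranged from -5.24 through -4.22 to -2.46 against -1.42 through 4.86 to 5.77, with no overlap. Its difference was -8.36 ± 0.55, or 328-fold. Cxcl2 was at -5.70 or below on all low arrays and at -8.10 on HFC week 3 and -3.06 on HFC day 14, whereas the other high arrays reached 0.16 to 3.25. Ifnb1 and Sele, the endothelial adhesion molecule E-selectin, were not well above background on any low array. By the means they were at least 986-fold and at least 374-fold higher in the high arrays. The same held for the epidermal growth factor ligand Areg, at least 134-fold higher. These probes passed the filter on dim probes through the high arrays alone. On HFC week 3 Ifnb1, Sele and Areg were not well above background either, and on HFC day 14 only Sele was, at -6.53.

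In the list of cytokines, chemokines and adhesion genes, 17 of 18 were called lower and Saa3, an acute phase gene, was 1.09 ± 0.56 higher and not called. The list's array medians were -3.90 to -1.82 on the low arrays. HFC week 3 (-2.55) and HFC day 14 (-1.86) lay inside that range, and the other high arrays were between 1.91 and 3.96. This holds for the list median only, since Cxcl1 was at -1.42 and -0.41 on those arrays, above every low array, and Il6 and Cxcl2 were above every low array on HFC day 14. Chosen after its values were seen, the inflammatory cytokines Tnf and Il1b differed by -5.75 and -5.68.

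**Figure D2:**
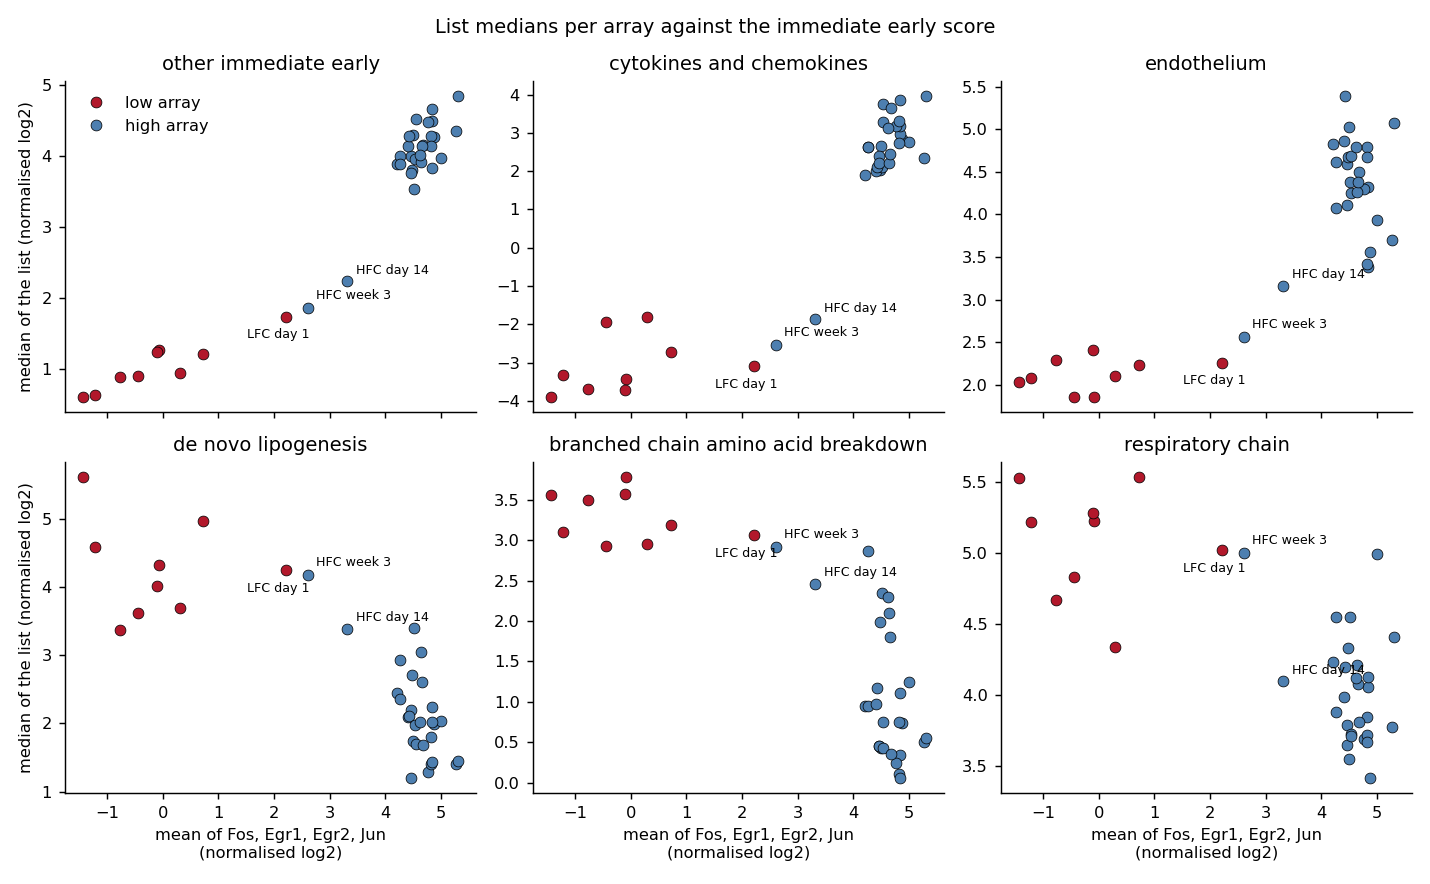
Median of a gene list on each array (y axes, normalised log2) against the mean of Fos, Egr1, Egr2 and Jun (x axes, normalised log2), with 1 point per array, red for low and blue for high arrays. LFC day 1, HFC week 3 and HFC day 14 stand between the clouds, and on the cytokine list the medians of both HFC arrays lie within the range of the low arrays.

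Stress genes did not move as a block. In the heat shock list, 10 of 23 genes were called lower and 5 higher, with a median of -0.38. Hspa1a, the inducible heat shock protein 70, was at -0.51 through 0.33 to 1.32 on the low arrays and 2.48 through 6.16 to 7.67 on the high ones, with no overlap and a difference of -5.47 ± 0.37. Its near-identical copy Hspa1b had no probe of its own here, so signal of both copies cannot be told apart. Hspb1 (-2.83 ± 0.33), the testis-enriched Hspa2 (-1.60 ± 0.25) and the co-chaperone Bag3 (-1.54 ± 0.18) were lower too. The genes called higher were Hspd1, Hspe1, Hspb8, Fkbp4 and Ahsa1, and the first pair encode the mitochondrial chaperonin.

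Of 22 genes of the endoplasmic reticulum stress response, 8 were called lower and 0 higher, with a median of -0.21. The largest difference was that of Ppp1r15a (listed as Myd116 on the array), a phosphatase subunit that restores translation, at -4.98 ± 0.41. Atf4 (-1.26 ± 0.26), Ddit3 (-1.21 ± 0.23) and the chaperone Hspa5 (-1.21 ± 0.21) were lower, while Xbp1, Calr, Canx and 11 others were not called. Of 17 oxidative stress genes, 9 were called lower and 4 higher. The metallothioneins Mt2 (-2.18 ± 0.28, saturated on 19 high arrays) and Mt1 (-2.11 ± 0.29) were lower, whereas catalase, Cat, was higher by 2.04 ± 0.32.

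Hypoxia genes were split, 5 lower and 5 higher of 14, and the sign of their median, 0.30, changed with time point as a block (-0.11). Adm (-2.43 ± 0.32) and Ndrg1 (-2.23 ± 0.22) were lower. The oxygen sensor Egln3 (2.14 ± 0.33) and the mitophagy receptor Bnip3 (1.96 ± 0.36) were higher. Of 12 glucocorticoid targets 7 were lower and 1 was higher, with the kinase Sgk1 differing by -2.83 ± 0.24 without overlap. Several of them, Nfkbia and Cdkn1a included, also respond to inflammatory signals. Of 15 clock genes 7 were lower and 0 higher, led by Bhlhe40 (listed as Bhlhb2), itself inducible, at -2.85 ± 0.29.

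Lipogenic genes were higher in the low arrays. In the de novo lipogenesis list 20 of 22 genes were called higher, with a median of 2.17, and 1, the elongase Elovl5, was lower (-0.52). Agpat2, which makes phosphatidic acid for triglyceride, was at 3.10 on LFC day 1, 4.78 on LFC day 6, 4.08 on HFC day 6, 3.12 on HFC day 10, 3.58 on HF20 week 6, 4.31 on LFC week 12, 3.15 on HF20 week 12, 3.39 on HF75 week 12 and 3.07 on HF20 week 18. On the high arrays it ran from -3.07 through -0.62 to 3.35, and the highest were again HFC week 3 (3.35) and HFC day 14 (2.52). The difference was 4.11 ± 0.55, or 17.2-fold.

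Mlxipl, which encodes the carbohydrate response factor ChREBP, ranged from 2.01 through 3.36 to 4.72 against -3.54 through -1.05 to 3.31, a difference of 3.96 ± 0.65. Acss2, the cytosolic acetyl-CoA synthetase, differed by 3.60 ± 0.68 with 1 low array missing, and Pnpla3 by 3.37 ± 0.64. The list held 6 probes that were saturated on most arrays of a set, Fasn and Scd1 among them, and for these the differences (0.44 and 1.07) are compressed. Fasn was the list's gene without a call. The probe of Dgat2 on the list, saturated as well, gave 1.19, and a dimmer probe of the same gene gave 3.50, so the probes disagree in size.

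Genes of fat storage and release followed in part. Of 13 lipolysis and lipid droplet genes, 7 were called higher and 2 lower, with 7 probes saturated on most arrays of a set. Among the probes not so saturated, 5 were called higher and 0 lower. G0s2, the inhibitor of adipose triglyceride lipase, was higher by 2.84 ± 0.36, the beta-3 adrenergic receptor Adrb3 by 2.72 ± 0.60 and the hormone-sensitive lipase Lipe by 2.31 ± 0.38. Of 12 adipocyte genes, 6 were higher and 3 lower, and 5 of the 12 probes were saturated on most arrays of a set. Apart from those probes, 5 were called higher and 1 lower. The adipokine Retn was at 5.56 to 6.26 on the low arrays and 0.08 to 5.93 on the high ones. Cebpa, a driver of adipocyte differentiation, differed by 2.86 ± 0.43.

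Most mitochondrial genes were called higher. In the respiratory chain 32 of 42 genes were called higher and 1, Cox6a1 on a saturated probe, lower, with a median of 1.05. Ndufa10 of complex I ranged from 2.80 through 3.05 to 3.78 against -0.86 through 1.03 to 2.77, with no overlap. Sdhb of complex II differed by 2.07 ± 0.29 and Cyc1 of complex III by 1.91 ± 0.21. Of the 9 genes not called, 7 had probes saturated on most arrays of a set. In the citrate cycle and fatty acid oxidation 25 of 27 genes were higher and 0 lower, with a median of 1.38, led by Acads (2.25 ± 0.39), Idh3a (2.16 ± 0.28) and Cpt2 (2.13 ± 0.30).

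For breakdown of branched chain amino acids 16 of 16 genes were called higher, none of them saturated on most arrays, with a median of 1.88. On single arrays its median was 2.93 to 3.78 in the low set and 0.06 to 2.91 in the high set, where HFC week 3 was the highest. Bckdhb, a subunit of the dehydrogenase that commits these amino acids to breakdown, ranged from 2.57 through 3.11 to 3.80 against -0.33 through 0.34 to 2.55, with no overlap. Pcca (2.86 ± 0.41) and Bcat2 (2.59 ± 0.31) also differed. Of 22 genes of the mitochondrial ribosome, import and biogenesis, 20 were higher and 0 lower. The coactivators Ppargc1a (2.16 ± 0.40) and Ppargc1b (2.02 ± 0.32) led them.

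**Figure D3:**
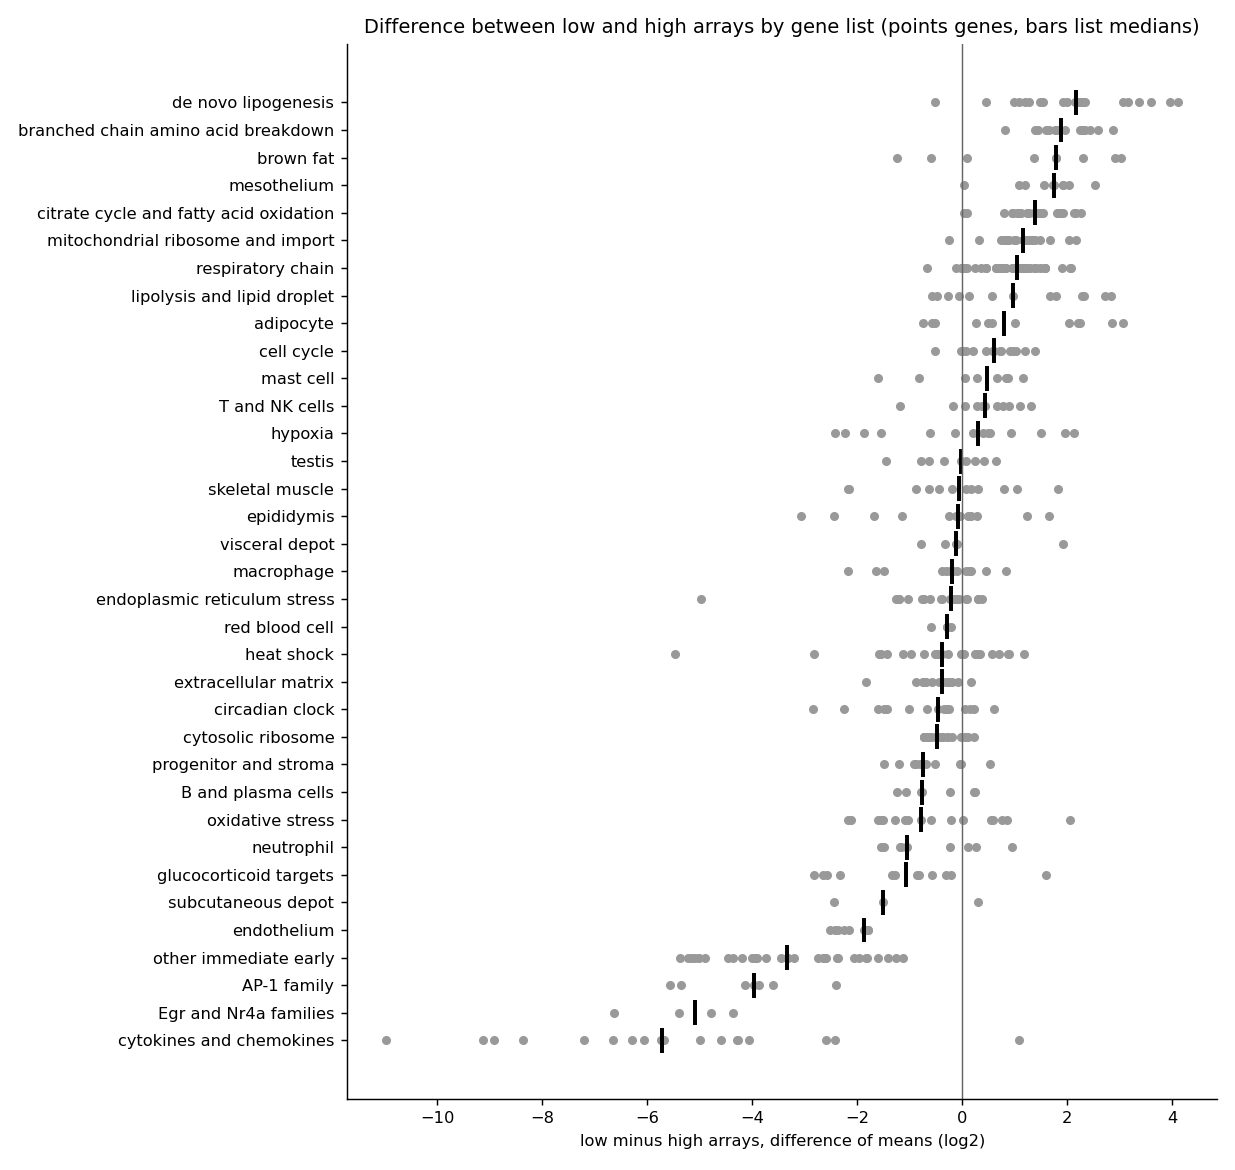
Difference of means between the low and the high arrays (x axis, log2) for every tested gene (grey points) of each list (y axis), with the list median as a black bar. The medians run from -5.71 for cytokines and chemokines to 2.17 for de novo lipogenesis, against 0.01 over all probes tested.

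Among the named genes most raised in the low arrays were some outside these lists. The mitochondrial carrier Ucp3 had a median of -0.85 on the low arrays and of -5.45 on the high ones, a difference of 4.39 ± 0.69, and was well above background on 15 of 28 high arrays and on all low ones. The aldehyde dehydrogenase Aldh1a7 ranged from 2.69 through 3.63 to 5.28 against -3.33 through -0.28 to 2.05, with no overlap and a difference of 4.31 ± 0.45. Igfals, which carries insulin-like growth factors in blood, differed by 3.97 ± 0.64, and Cldn22 by 3.89 ± 0.54. Igfals was not well above background on some high arrays, such as HF5 week 15 (-8.52). Over 24 alternatives Ucp3 and Igfals kept their calls, but their differences fell to as little as 1.45 and 1.42. The noncoding Snhg11 (3.90 ± 0.94) and Lrtm1 (3.89 ± 0.59) were well above background on only 13 and 12 of 28 high arrays, so the sizes rest partly on dim signal. With normexp background correction both lost their call, at 0.95 and 0.74, and Snhg11 reached -0.16 on HFC week 3 against at most 0.33 on the low arrays. Among the probes tested, 223 were lower by 4 log2 units or more and 6 were higher by as much. Of the 223 probes, 17 were not well above background on the low arrays. The filter on dim probes could pass a probe seen on only part of the high arrays. A probe seen in the low set alone had to be seen on all low arrays. Saturation also compresses the differences of bright probes, so these counts cannot show in which direction large differences were more common.

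Markers of other cell types moved as well. All 11 endothelial genes were called lower, with a median of -1.88 and a narrow range from -2.53 to -1.80. The array medians were 1.86 to 2.42 in the low set and 2.56 to 5.39 in the high set, without overlap. Cdh5, VE-cadherin, ranged from 1.86 through 2.24 to 3.03 against 2.92 through 4.87 to 6.44. Esam (listed as Esam1) ranged from 1.19 through 1.36 to 1.83 against 1.83 through 3.89 to 4.81 and just failed to overlap. The summed level of the endothelial list was 5.78 to 6.44 on the low arrays and 6.60 to 8.91 on the high ones, and its part in the lower Sele, Selp and Icam1 was not tested.

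The 14 macrophage genes showed no common shift (3 lower, 1 higher, summed level 6.07 to 7.57 against 5.48 to 8.66), and the macrophage growth factor receptor Csf1r was higher by 0.83 ± 0.30 while the induced Cd14 was lower by 2.18 ± 0.33 on the log2 scale. Of 10 progenitor and stroma genes 6 were lower and 0 higher, led by Pdgfrb (-1.49 ± 0.23). Of 10 mesothelial genes 5 were higher and 0 lower, with Upk3b at -0.20 through 0.43 to 1.73 against -8.24 through -0.95 to 1.63. Without the 4 high arrays of week 6 the difference of Upk3b was 1.55 in place of 2.53, the list's median 1.18 in place of 1.74, and 4 genes were called higher and 1 lower. Of 9 brown fat genes tested 6 were higher and 1, Ucp1, lower (-1.25), and Zic1 was not well above background on any array. With time point as a block 1 of these genes was called higher in place of 6, and the median was 0.90 in place of 1.79. Elovl3, of that list, was scattered, from -8.39 on HF20 week 12 to 1.99 on LFC week 12.

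Genes of the epididymis and testis, which lie beside this fat, varied widely between arrays within both sets. The epididymis list had array medians of -8.35 to 3.10 in the low set and -8.56 to 3.43 in the high set, with 0 of 12 genes called, and the testis list -8.53 to 2.87 against -6.31 to 0.46, with 1 of 9 called lower. The highest low array was LFC day 1 for the first and HF20 week 6 for the second. Neutrophil, T and NK cell, B and plasma cell, mast cell, red blood cell, skeletal muscle, cell cycle and depot lists had at most 2 genes called in a direction. Of the 25 cytosolic ribosome genes 14 were called lower, and all 14 were among the 16 whose probes were saturated on most arrays of a set. Of the 9 others 0 were called, so no difference in level is given for them. In the extracellular matrix list 5 of 18 were lower and 0 higher, with Timp1 at -1.84 ± 0.45.

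Both sets were present on 4 scan dates, which allowed 4 of the 9 low arrays to be set against a high array of the same date and time point. LFC day 1 and both day 6 arrays had no high array on their scan date, and the LFC and HF75 arrays of week 12 were not paired. The pairs were HFC against LFC at day 10, HF20 against HF75 at week 6, and HF20 against HF5 at weeks 12 and 18, and in both of the latter the arrays also shared a slide. The members of a pair differ in diet too, so diet and set cannot be told apart within it. The cytokine list was lower by 3.24, 4.06, 6.37 and 6.84 log2 units in the median, in that order, and 17 of 18 genes were lower in all 4 pairs. All 32 other immediate early genes and 10 of 11 endothelial genes were lower in all 4 pairs. Over all probes, 7491 of 31191 were lower and 6688 higher in all 4.

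The metabolic lists were less even. De novo lipogenesis was higher by 0.60 at day 10, 2.59 at week 6, 3.19 at week 12 and only 0.33 at week 18, and 10 of 22 genes were higher in all 4 pairs. The high array of the week 6 pair, HF75, was among those with high subcutaneous and low mesothelial genes, and in that pair the mesothelial median differed by 6.02 and the testis median by 8.32. In the other pairs the testis median differed by -5.57 at day 10, -4.12 at week 12 and -6.74 at week 18. The epididymis median differed by -2.70, 7.66, -2.45 and -0.77 at day 10 and weeks 6, 12 and 18. The part of these genes in the other differences of the pairs was not tested. Branched chain amino acid genes were higher by 1.33, 2.35, 2.93 and 0.74, with 16 of 16 higher in all 4 pairs. For the citrate cycle and fatty acid oxidation 22 of 27 genes, and for the respiratory chain 24 of 42, were higher in all 4, and in the week 18 pair 17 of 42 respiratory chain genes were lower. At week 18 the medians of the lipolysis and adipocyte lists were -0.25 and -0.11, against at least 1.21 and 0.95 in the other pairs. The LFC, HFC and HF75 high arrays of week 18 shared that scan date and were not paired. The lipolysis list's array median was 5.86 on HF20, 6.11 on HF5 and 5.31, 4.61 and 4.91 on LFC, HFC and HF75. For the adipocyte list these were 5.62, 5.43, 5.44, 5.02 and 5.23. By these array medians the sign for lipolysis at week 18 depends on the partner taken. Across probes, the differences of 2 pairs correlated at r = 0.22 to 0.58 (across probes, which are not independent replicates).

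**Figure D4:**
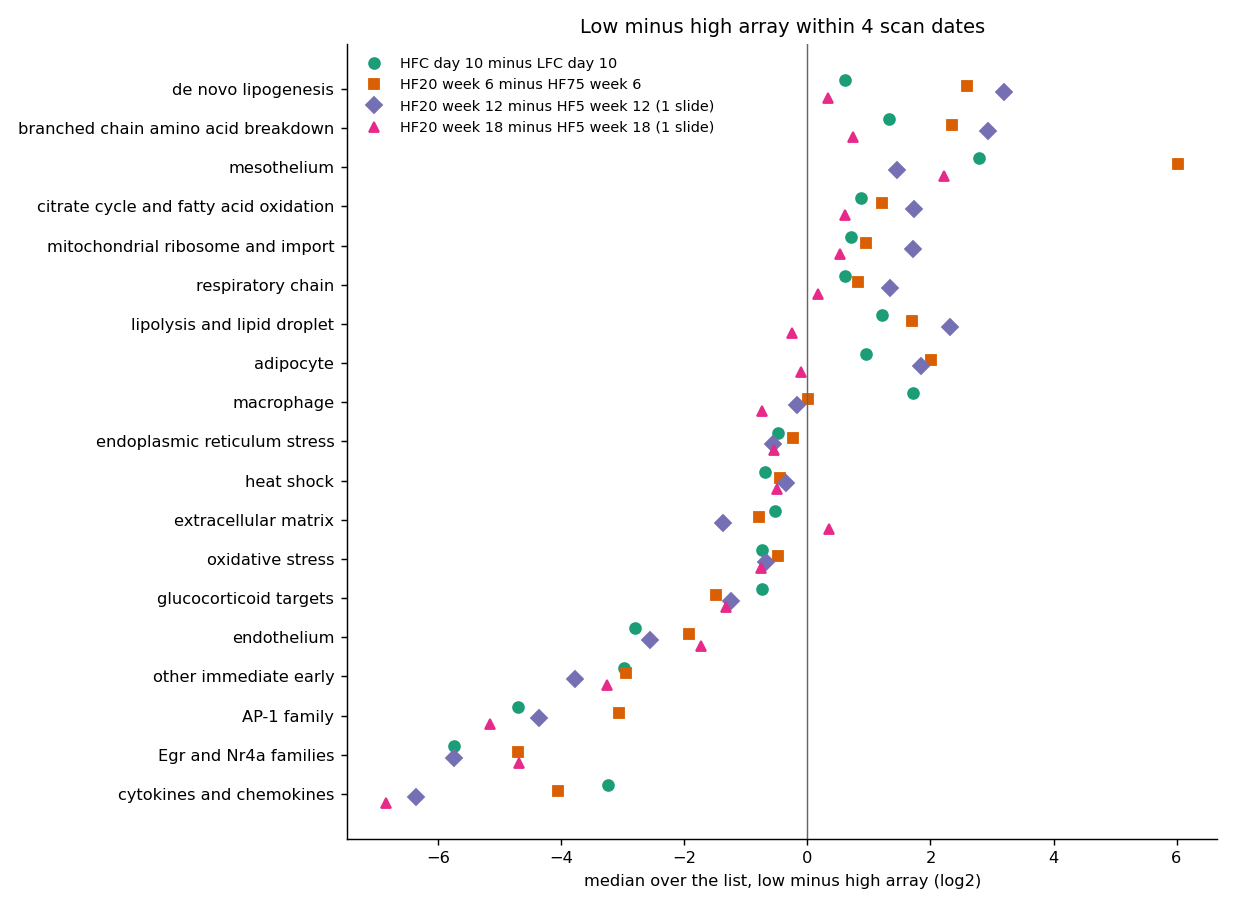
Median over a gene list (y axis) of the difference between a low and a high array scanned on the same date (x axis, log2), with 1 symbol per pair. Immediate early, cytokine and endothelial lists lie below 0 in all 4 pairs, and lipogenic, lipolysis and adipocyte lists are near 0 in the week 18 pair.

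The same genes were then examined among the 28 high arrays alone, by a limma slope on an immediate early score. The score was the mean of Fos, Egr1, Egr2 and Jun, the genes of the rule. The lists were already known to differ between the sets, so the slopes and their p-values are not evidence independent of the split. Of 31187 probes other than those of the 4 score genes, 8.61% rose and 8.42% fell with the score at an adjusted p of 0.05. In the cytokine list 17 of 18 genes rose, as did all 7 AP-1 genes, all 4 Egr and Nr4a genes and 27 of 32 other immediate early genes. In the lipogenesis list 14 of 22 fell, in the branched chain amino acid list 15 of 16, in the citrate cycle and fatty acid oxidation list 19 of 27 and in the respiratory chain 13 of 42.

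These slopes rested largely on HFC week 3 and HFC day 14, the arrays with the lowest scores. Without them the calls fell from 5310 to 519 probes, 0.705% rising and 0.959% falling, and with time point as a block as well limma called 0 (3749 probes at an unadjusted p under 0.05). The cytokine list then had 0 genes called and its median slope dropped from 2.45 to 0.88 log2 units per unit of the score. Il6 rose by 4.26 ± 0.44 per unit over the 28 arrays (limma, adjusted p = 4.18e-07) and by 0.96 without the pair (adjusted p = 0.296). For the lipogenesis list the median went from -1.06 to -1.28 with 1 gene called, and for the branched chain amino acid list from -1.07 to -0.91 with 2 called. With time point as a block as well, the lipogenesis median changed sign, to 0.02. So did those of the adipocyte (0.21), respiratory chain (0.14) and citrate cycle and fatty acid oxidation (0.06) lists. The branched chain amino acid, lipolysis and mitochondrial ribosome medians kept their sign.

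Most of the named genes with a called slope lost their call without the pair, and 12 were still called. Over all probes the calls fell in the same way, from 5310 to 519. Whether the 12 exceed that rate was not tested. Csf2, a growth factor for myeloid cells, rose by 3.39 per unit (limma, adjusted p = 6.99e-07) and by 2.86 without the pair (adjusted p = 0.0471). Abhd15, an adipocyte regulator of lipolysis, fell by 2.52 per unit (adjusted p = 1.82e-04) and by 3.17 without it (adjusted p = 0.0471). The endothelial list, where 6 of 11 genes had risen, changed the sign of its median slope from 0.58 to -0.24. With time point as a block and all 28 arrays, 2060 probes were called in place of 5310.

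**Figure D5:**
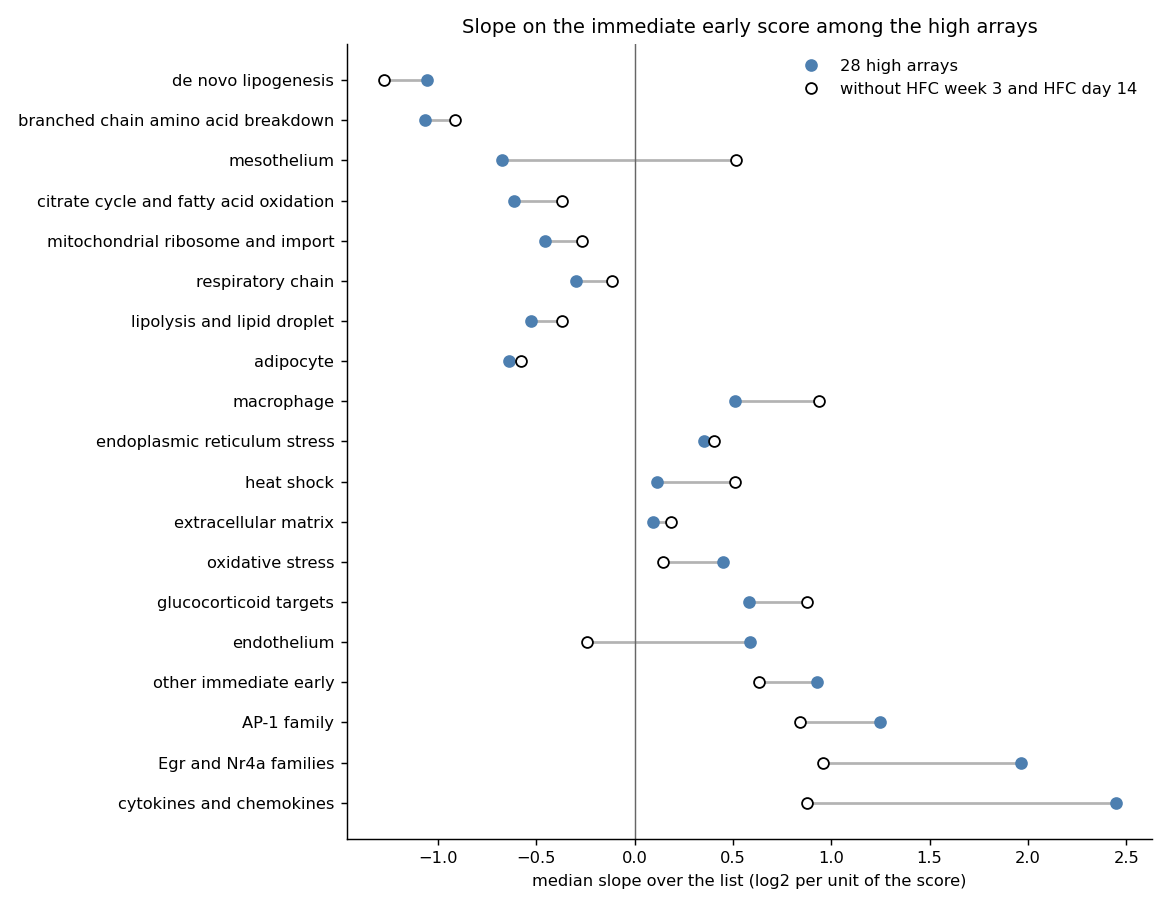
Median slope of a gene list (y axis) on the immediate early score among the high arrays (x axis, log2 per unit of the score), with all 28 arrays (filled) and without HFC week 3 and HFC day 14 (open). Without that pair the cytokine median dropped from 2.45 to 0.88, and the endothelial and mesothelial medians changed sign.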

How the data were processed

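RNA of mouse epididymal fat was measured on 39 Agilent one-colour arrays (Cy3, Quick-Amp labelling). The deposited scanner files hold spot intensity values that, per the file headers, Feature Extraction had background-subtracted within each array, with no scaling between arrays. The submitters' processing notes name version 9.1 of that program and the headers a later one. A deposited table of the authors' own fold changes was not used.

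Here the processed intensity of non-control spots was log2 transformed, outlier spots were set to missing, each array's 75th percentile was subtracted and the spots of a probe were averaged. Probes that the scanner marked as clearly above background on 9 or more of the 37 arrays were tested. A gene on a list was read from its brightest probe, and array names were updated to RefSeq symbols. Differences and slopes were fitted with limma 3.58.1 in R 4.3.3 with Benjamini-Hochberg adjustment over all probes tested (two-sided, 0.05). The fits were tested on simulated data. For low against high, 4.48% of simulated differences of 0.5 log2, 46.3% of 1 log2 and 86.4% of 2 log2 were called. The simulated probes varied independently of each other, so shifts shared by many probes were not covered. The score kept outlier spots.

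The low arrays, the 36 lists (526 genes, 523 on the array, 513 tested) and the comparisons were chosen with earlier results of these data known. Genes were named by a rule: the 4 markers, the 8 largest differences each way called with and without time point as a block (predicted genes left out), up to 4 called genes per list, the 8 largest slopes each way, and up to 2 called slopes per list. A gene that no array of a set measured above background has only a bound, taken from the dimmest probes that were. A saturated spot understates its gene. 1 named gene is not reported here. The labels' design text speaks of 3 biological replicates, but 1 array per diet and time point was analysed here, and p-values measure the spread between arrays. The number of arrays limits the precision. Alternatives were diet, time point, scan date or slide in the fit, other scalings, background correction and filters, array weights and leaving out arrays.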

Additional observations from a re-analysis of the deposited data

Results flagged for a closer look

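Among 145 genes named by the rule, 9 had a low array that stood apart from the other 8 by Dixon's criterion at 95%, where chance alone flags about 1 in 20. On HF75 week 12 the cell cycle inhibitor Cdkn1a was at -3.18 with the nearest low array at -0.49, and the muscle genes Mylpf and Myh1 were at 0.23 and -1.06 with the nearest at -2.13 and -3.71. On HF20 week 6 the Leydig cell hormone Insl3 was at 3.04 with the nearest at 0.24, beside a testis list median of 2.87 on that array. The same array had the lowest Mccc1 (3.98, nearest 4.87) and the highest Csrnp1 (0.70, nearest -0.17). LFC day 6 had the highest Rps23 (6.52, nearest 5.94), Atp5a1 (6.57, nearest 5.89) and Plin1 (6.47, nearest 5.94), and these 3 probes were saturated on most low arrays. The causes were not tested.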

How the results depend on the processing

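Low against high called 15579 probes, and 9809 with scan date as a fixed block. Leaving out each low array in turn gave 14749 to 15214 and the replicate block by time point 11550. Under normexp the median of all probes shifted from 0.01 to -0.53 and the higher share of calls from 50.2% to 25.6% (19636 calls), and without a filter on dim probes to 39.0%. In that comparison the cytokine median stayed between -6.09 and -4.56 and that of lipogenesis between 1.64 and 2.31 over 25 alternatives. Under normexp Cd8b1 and Bnc1 turned to -0.38 and -0.26. Of 3072 differences of named genes recomputed under these settings, 132 lost their call. Leaving out the 4 high arrays of week 6, chosen after seeing the data, lost the calls of Upk1b, Thy1, Gpnmb and Cdk1.

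The slope called 5310 probes. It called 2060 with the replicate block by time point, 1764 with scan date as a block, 2418 with weeks 0 to 18 only, 1966 under normexp, 2960 with array weights, 2511 without day 14, 3192 with Fos alone as the score and 519 without the 2 arrays farthest from the median score. With those 2 left out and time point as a block, a choice made after seeing the data, limma called 0 of 31187 probes, with 3749 at an unadjusted p under 0.05. The rising share moved from 50.6% to 66.2% with median scaling and to 41.7% with quantile scaling, and under normexp the median slope of all probes was 0.27. Ppp1r15a reversed to -0.73 without those 2 arrays and to -1.44 with the block as well. Under the latter, Sele (-0.31), Cxcl2 (-0.28), Areg (-0.29), Snhg11 (0.19), Serpina3k (0.55), Cd14 (-0.30), Cdkn1a (-0.17), Dlat (0.057), Cry1 (-0.10) and Insl3 (-0.12) reversed. The causes were not tested.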
